A study of Neurospora crassa with 19 samples.

Results

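The genes described here are 6 that mend broken DNA in the filamentous fungus Neurospora crassa, chosen by locus number from the 9730 genes counted. Of these, 3 belong to end joining (mus-51, NCU08290; mus-52, NCU00077; mus-53, NCU06264) and 3 to homologous recombination (mei-3, NCU02741; mus-11, NCU04275; mus-25, NCU02348). They were read in 2 poly-A RNA libraries. Both come from strain N5801, in which, per the labels, dim-1 (NCU06484) is fully deleted, a gene the study's title presents as a chromatin remodeler. The other 17 of the series' 19 samples were not analysed here. The cultures were shaken for 16 h at 32 °C in Vogel's minimal medium with 1.5% sucrose, and the labels call the material germinated conidia. The labels name no other allele of this strain, N5801 is a single strain, and the wild-type RNA that the study set beside it was deposited under another series and not used here. The values are therefore levels within this strain, with no comparison to wild type. The labels speak of duplicates but do not mention separate cultures, and replicate spread and p-values may reflect technical variation alone.

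Cells repair a double-strand break by joining its ends directly or by copying an intact partner sequence. In end joining, the ring formed by Ku70 and Ku80 clamps onto the ends and a complex with DNA ligase IV seals them. In recombination, RAD52 helps proteins assemble on single-stranded DNA, and RAD54, a motor protein of the SNF2 family, helps the invading strand pair with its target. Neurospora joins foreign DNA mostly by the first route. Strains lacking either Ku gene direct it to the matching site instead and became the usual recipients for making gene deletions. In this fungus mus-51 encodes Ku70, mus-52 Ku80 and mus-53 the ligase, while mus-11 and mus-25 encode the counterparts of yeast RAD52 and RAD54 and mei-3 acts in the same route.

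Gene counts summed to 17364963 in replicate 1 and to 13632746 in replicate 2. Levels are given in CPM, counts-per-million of all gene counts of a library, and intervals are exact 95% Poisson intervals that cover counting error only. A gene counted as detected if each library had at least 10 counts, which 7775 genes reached. The limit of a count of 0 was set at 3 counts, about its one-sided 95% bound, or 0.173 CPM in replicate 1 and 0.220 CPM in replicate 2. The exact two-sided interval of 0 counts reaches slightly higher, to 0.212 and 0.271 CPM. Of the 6 repair genes, 5 were detected, and mus-51 was the exception. In bulk RNA, fewer cells expressing a gene and less RNA per cell cannot be told apart. The labelled tissue was checked against fixed markers. The 5 conidiation genes were all detected, with mean levels between 1.01 CPM for acon-3 and 106 CPM for con-8, and summed to 226 CPM in replicate 1 and 152 CPM in replicate 2. The growth genes tef-1, pma-1 and bml lay between 879 and 9257 CPM. Among genes of sexual tissue, fmf-1 had 0 counts in both libraries, sad-1 had 3 and 2 counts, and fsd-1 averaged 23.5 CPM.

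The Ku70 gene mus-51 was nearly without reads, while the gene of its partner was not. mus-51 had 7 counts in replicate 1 (0.403 CPM, interval 0.162 to 0.831) and 10 counts in replicate 2 (0.734 CPM, interval 0.352 to 1.35), a mean of 0.568 ± 0.234 CPM (SD, n = 2). The Ku80 gene mus-52 had 563 counts in replicate 1 (32.4 CPM, interval 29.8 to 35.2) and 352 in replicate 2 (25.8 CPM, interval 23.2 to 28.7), a mean of 29.1 ± 4.67 CPM. Both mus-51 values lay above the limit of a count of 0, which was 0.173 CPM in replicate 1 and 0.220 CPM in replicate 2. In replicate 1 the mus-51 interval reached below this limit, and in replicate 2 the interval stayed above it. The ligase gene mus-53 had 150 counts in replicate 1 (8.64 CPM) and 91 in replicate 2 (6.68 CPM), a mean of 7.66 ± 1.39 CPM. Low read numbers make the mus-51 values the least precise of the 6, and the intervals of its 2 libraries overlapped.

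**Figure D1:**
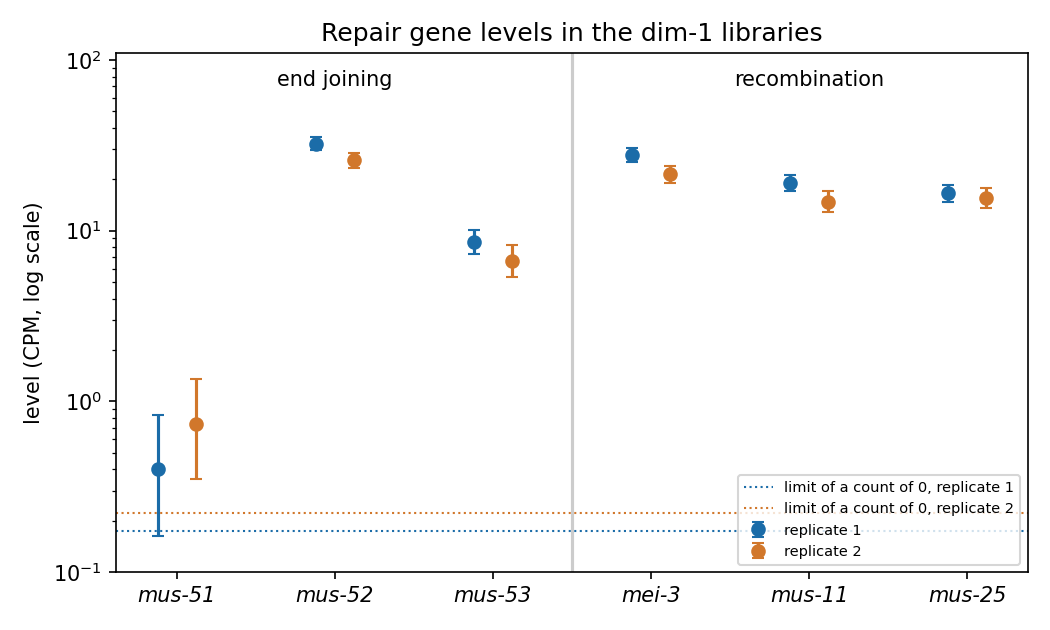
Level of each repair gene in CPM on a log axis in the 2 dim-1 libraries, end joining at left and recombination at right. Points are single libraries, bars are exact 95% Poisson intervals and dotted lines mark 3 counts per library. Ku70 gene mus-51 lies nearest to those lines, above them at 0.403 and 0.734 CPM, and the other 5 genes lie between 6.68 and 32.4 CPM.

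Because Ku works as a pair, the share of reads within a library compares its genes without any scaling between libraries. Of the reads on both Ku genes, mus-51 held 1.23% in replicate 1 (7 of 570, exact Clopper-Pearson 95% interval 0.495 to 2.51) and 2.76% in replicate 2 (10 of 362, interval 1.33 to 5.02). Levels were then divided by gene span, which is 2426 bases for mus-51 and 3425 for mus-52. Per kilobase the Ku80 gene was 57.0-fold above the Ku70 gene in replicate 1 (interval 27.5 to 142) and 24.9-fold in replicate 2 (interval 13.4 to 52.5). Neither interval came near equal levels. Gene span includes introns, so levels per kilobase are approximate.

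Many genes were as quiet as mus-51, but few of like size. At or below its count in both libraries were 1639 of the 9730 genes, or 16.8%, itself included, and its CPM, not corrected for length, was at percentiles 16.7 (replicate 1) and 19.9 (replicate 2) of all genes. Of the 1501 genes whose span was within 10% of that of mus-51, 95 (6.33%, itself included) had counts as low in both, and the median of these 1501 genes was 520 counts in replicate 1 and 386 in replicate 2. The closest named genes by level, measured as the Euclidean distance of log2(CPM + 0.5) over the 2 libraries, were gh61-8 (NCU03000; distance 0.19; 9 and 11 counts) and per-1 (NCU03584; distance 0.27; 10 and 11 counts). The gene table gives 28 genes a mus or uvs name, the series of genes found through sensitivity to mutagens or ultraviolet light, a list formed after values of some of them were known. Among these, mus-51 had the lowest level per kilobase. Next above it came mus-42, which the table equates with the translesion synthesis gene rev1, at 1.10 ± 0.326 CPM per kilobase, 4.72-fold higher than mus-51.

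The genes beside mus-51 were well expressed. In the chromosomal order of the RefSeq NC12 gene table, NCU08291 ends 149 bases before it and had 209 CPM in replicate 1 and 354 CPM in replicate 2. On the other side dmm-2 (NCU08289), a gene of DNA methylation control in Neurospora, begins 430 bases away and had 35.9 and 41.0 CPM. The next genes outward, NCU08292 and NCU08288, had means of 70.7 ± 5.88 and 266 ± 54.4 CPM (SD, n = 2). Low read numbers were thus seen at mus-51 and not at the 4 genes around it.

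**Figure D2:**
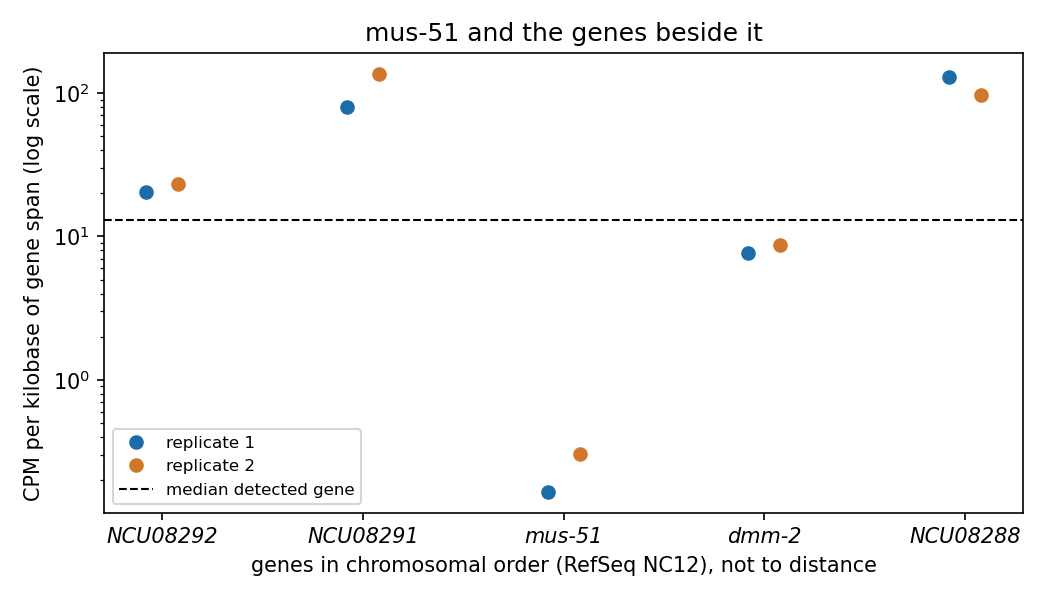
CPM per kilobase of gene span, on a log axis, for mus-51 and the 2 genes on each side in chromosomal order, with a point for each library and a dashed line at the median detected gene (13.0). The 4 neighbours lie between 7.64 and 136 and mus-51 at 0.166 and 0.302.

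Whether strain N5801 carries an inactivated mus-51 cannot be read from these counts. The labels do not give a mus-51 allele, counts per gene do not show where in the gene the reads lay, and no library with a known intact mus-51 was used, so a disrupted gene with a few reads and an intact gene with low expression cannot be told apart. Other loci had counts on both sides of those of mus-51. The 3 genes of the A mating type, which strains of the opposite mating type lack (NCU01958, mat A-1; NCU01959, mat A-2; NCU01960, mat A-3), had 0 counts in both libraries, below the 7 and 10 of mus-51. The labels name no mating type allele of N5801, so absent and silent mat A genes cannot be told apart here. The dim-1 gene, which the labels describe as deleted, had 258 counts in replicate 1 and 171 in replicate 2. Taken per kilobase, mus-51 reached 8.65% of the dim-1 level in replicate 1 (interval 3.44 to 18.1) and 18.6% in replicate 2 (interval 8.78 to 35.1). The gene labelled as deleted thus had more reads than mus-51 in both libraries. Its mean of 13.7 CPM was at percentile 28.6 of detected genes. Counts per gene do not show where in dim-1 these reads lay, so they set no level for a deleted gene.

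The recombination genes were all detected. The gene mei-3 had 482 counts in replicate 1 (27.8 CPM, interval 25.3 to 30.3) and 292 in replicate 2 (21.4 CPM, interval 19.0 to 24.0), a mean of 24.6 ± 4.48 CPM (SD, n = 2). The RAD52-type gene mus-11 had 332 and 202 counts, or 19.1 and 14.8 CPM, with a mean of 17.0 ± 3.04 CPM. The RAD54-type gene mus-25 had 288 and 213 counts, or 16.6 and 15.6 CPM, with a mean of 16.1 ± 0.680 CPM. Each of these genes had the higher value in replicate 1, and the 2 values of mus-25 lay closest together.

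Ratios within a library were closer between replicates for some pairs of these genes than for others, but the counting intervals overlapped for every pair given here. mus-11 held 40.8% of the reads on mus-11 and mei-3 together in replicate 1 (interval 37.4 to 44.3) and 40.9% in replicate 2 (interval 36.5 to 45.4). Per kilobase of span its level was 46.1 ± 0.141% of that of mei-3 (SD, n = 2). mus-25 held 37.4% of the reads on mus-25 and mei-3 together in replicate 1 and 42.2% in replicate 2, with overlapping intervals (34.0 to 40.9 and 37.8 to 46.6). Per kilobase, mus-25 reached 66.2% of the mus-11 level in replicate 1 (interval 56.3 to 77.8) and 80.5% in replicate 2 (interval 66.1 to 98.1). On the end-joining side, mus-53 held 21.04% (interval 18.1 to 24.2) and 20.54% (interval 16.9 to 24.6) of the reads on mus-53 and mus-52 together. Its level per kilobase was 24.6 ± 0.525% of that of mus-52. The ligase gene was thus read at about the same fraction of the Ku80 gene in both libraries, within these counting intervals.

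Compared per kilobase of gene span, the order was mei-3, mus-52, mus-11, mus-25, mus-53 and mus-51. The recombination gene mei-3 had the highest level at 14.6 ± 2.66 CPM per kilobase (SD, n = 2), followed by mus-52 at 8.50 ± 1.36 and mus-11 at 6.73 ± 1.21. The ranges of mus-52 and mus-11 over the 2 libraries overlapped. Within each library mus-52 was still the higher, at 9.47 against 7.58 in replicate 1 and 7.54 against 5.88 in replicate 2. The difference between these neighbours in the order was not tested. Below them came mus-25 at 4.88 ± 0.206, mus-53 at 2.10 ± 0.380 and mus-51 at 0.234 ± 0.0963 CPM per kilobase. For every other adjacent pair the ranges of the 2 libraries were separate, with the widest step, 8.96-fold, between mus-53 and mus-51. The median detected gene had 13.0 CPM per kilobase, and 5 of the 6 repair genes lay below it. These include mus-51, which was itself not detected and stood at percentile 16.2 of all genes by mean level per kilobase. By mean level per kilobase, mei-3 stood at percentile 53.6 of detected genes, mus-52 at 38.2, mus-11 at 32.0, mus-25 at 24.3 and mus-53 at 11.02, as a description without a test.

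**Figure D3:**
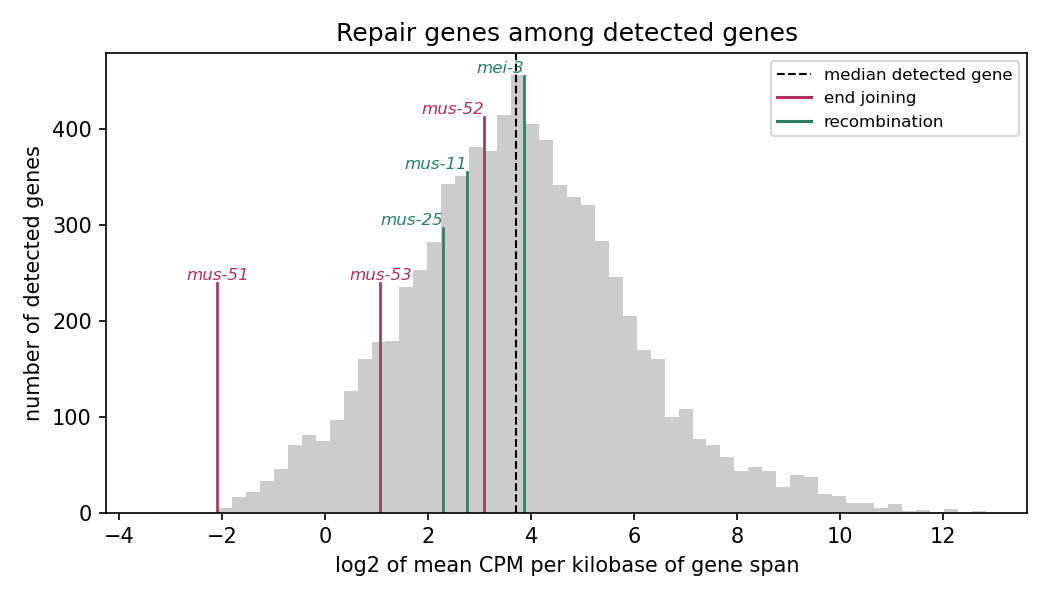
Number of detected genes by log2 of the mean CPM per kilobase of gene span, with lines at the end-joining and recombination genes and a dashed line at the median detected gene. The lines run up to mei-3 at 14.6 CPM per kilobase, just above the median of 13.0, and down to mus-51 at 0.234. mus-51 was not detected, so it is not among the genes counted in the bars.

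The replicates were also compared gene by gene. A two-sided exact binomial test on reads set replicate 1 against replicate 2 over the 7898 genes whose counts summed to at least 20, and a call needed a Benjamini-Hochberg adjusted p under 0.05 and at least a 2-fold difference. It compares these 2 libraries, not conditions, and covers counting error only, since it treats reads as independent. Of the 5 repair genes that could be tested, 0 were called, against 6.15% of all genes tested, and 3 had an unadjusted p under 0.05, against 60.8%. edgeR's exact test also called 0 of the 5, against 0.646% of all genes tested, with 0 at an unadjusted p under 0.05, against 5.42%. Its spread was estimated from the same libraries that it compares. With so few genes, these counts do not set the repair genes apart from other genes, and neither test shows that their levels were stable. mus-51, with 17 counts in all, fell under the count minimum. All 5 tested genes were higher in replicate 1, by a median log2 ratio of 0.31, against a median of −0.00 over all genes tested, of which 3934 of 7898 were higher there. Their ratios ran from 0.03 for mus-25 to 0.32 for mei-3, and the median size of the ratio over all genes, regardless of sign, was 0.29.

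Without the 2-fold minimum, the exact binomial test gave 3 of the 5 an adjusted p under 0.05, where 57.3% of all genes tested did. mei-3 was 1.25-fold higher in replicate 1 (log2 ratio 0.32, adjusted p = 0.00609), mus-52 1.21-fold (0.27, adjusted p = 0.0111) and mus-11 1.24-fold (0.31, adjusted p = 0.0297). mus-53, with fewer reads, had a similar ratio (0.31, adjusted p = 0.157), and mus-25 had nearly none (0.03, adjusted p = 0.899). Differences of this size between replicates were common among all genes.

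**Figure D4:**
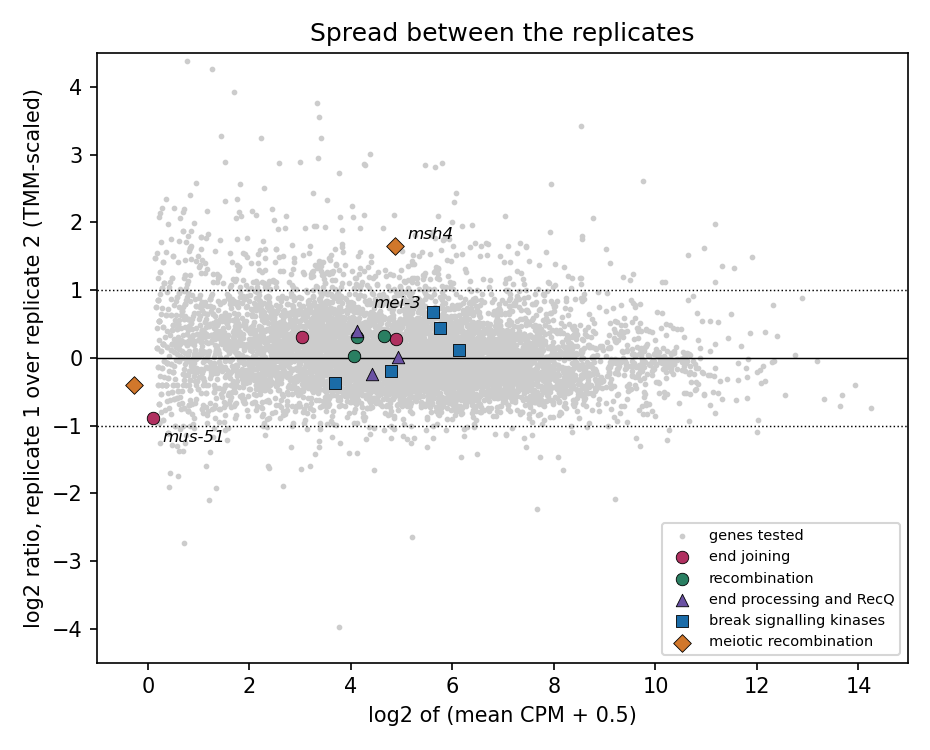
Log2 ratio of replicate 1 over replicate 2 against log2 of the mean CPM plus 0.5, with all genes tested in grey, repair genes in colour by role and dotted lines at 2-fold. The end-joining and recombination genes lie between 0.03 and 0.32, apart from mus-51 at −0.89, which like spo11 had too few counts to be tested, and msh4 lies at 1.65.

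Of 13 names fixed for end processing and recombination helicases, the gene table held 3, and all were detected at levels per kilobase within the range of the 5 detected genes described above. The MRE11-type nuclease gene mus-23 (NCU08730) had 19.4 and 22.1 CPM and the RAD50-type gene uvs-6 (NCU00901), whose product forms a complex with MRE11 that trims and tethers ends, had 30.8 and 29.2 CPM. Their levels per kilobase, 7.21 ± 0.657 and 6.59 ± 0.242 (SD, n = 2), were close to that of mus-11. The RecQ-type helicase gene qde-3 (NCU08598) had 19.6 and 14.4 CPM, or 2.30 ± 0.503 CPM per kilobase, close to mus-53. The exact binomial test called 0 of these 3 between replicates (6.15% of all genes) and gave 2 an unadjusted p under 0.05 (60.8% of all genes). edgeR's exact test called 0 (0.646% of all genes), with 0 at an unadjusted p under 0.05 (5.42%).

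The 5 kinase genes that signal breaks were detected as well, with a median of 48.8 CPM and 6.42 CPM per kilobase. Per kilobase they ran from mus-59 (NCU02751), at 2.65 ± 0.412, to the CHK2-type gene prd-4 (NCU02814) at 21.7, above mei-3. For these 5 the exact binomial test called 0 between replicates, with 4 at an unadjusted p under 0.05, and edgeR's exact test called 0, with 0 at an unadjusted p under 0.05. Against the same shares of all genes (6.15% and 60.8%, and 0.646% and 5.42%), counts this small say nothing particular about the kinase genes.

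Recombination genes named for roles in meiosis, spo11 and msh4, were added to the list after the rule for named genes had been set. spo11 (NCU01120), whose product cuts DNA to start meiotic recombination, had 5 counts in each library, or 0.288 and 0.367 CPM. Its level per kilobase averaged 0.178 CPM, and its range overlapped that of mus-51.

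msh4 (NCU10895), named for a MutS homolog that in yeast acts in meiotic crossing over, had 759 counts in replicate 1 and 182 in replicate 2, or 43.7 and 13.4 CPM. Its mean level per kilobase, 6.33 CPM, lay between those of mus-11 and mus-25, unlike that of spo11. It was 3.14-fold higher in replicate 1 and was called by the exact binomial test (log2 ratio 1.65, adjusted p = 6.05e-52), while edgeR's exact test gave an adjusted p of 0.121. Of the 5 conidiation genes, 3 were higher and 2 lower in replicate 1. con-10, for example, had 25.9 CPM in replicate 1 and 5.87 in replicate 2, while eas had 53.6 and 76.0. Their part in the msh4 difference was not tested.

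The genes next to the other repair genes ranged from nearly unread to highly abundant. mus-52 begins 21 bases from qip (NCU00076), a gene of RNA interference, in the RefSeq NC12 table, and qip had 17.0 and 17.3 CPM. mei-3 lies between NCU02740, with 0 and 1 count, and NCU02742, with 61.8 and 62.1 CPM. mus-53 lies between NCU06263, with 1 and 0 counts, and NCU06265, with 52.7 and 22.4 CPM. NCU06265 was called as 2.27-fold higher in replicate 1 by the exact binomial test (adjusted p = 3.70e-38, or 0.592 by edgeR's exact test), and mus-53 was not called. mus-11 lies beside NCU04276, which had 3118 and 3163 CPM. The spans of mus-25 and NCU02349 overlap by 107 bases in that table, and NCU02349 had 113 and 137 CPM. Without a stated strand setting of the counting, reads in that overlap cannot be assigned with certainty, so the level of mus-25 carries this limit.

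The named genes whose levels over the 2 libraries lay closest to each detected member were of varied function. For mei-3 they were qde-1 (NCU07534), an RNA interference gene, at a distance of 0.0696, and gch-1 (NCU07774) at 0.0719. For mus-11 they were stk-8 (NCU07172) at 0.0392 and the RecQ-type gene qde-3 at 0.0564. For mus-25 they were pp2A (NCU06563) at 0.0193 and set-7 (NCU07496), the H3 lysine 27 methyltransferase gene, at 0.0385. For mus-52 they were cys-16 (NCU09230) at 0.0695 and crf4-2 (NCU00164) at 0.0882, and for mus-53 set-9 (NCU08733) at 0.0847 and gh47-7 (NCU02091) at 0.204. With only 2 libraries of a single strain, closeness here means a similar level and says nothing of shared regulation. The 5 detected members fell within 7.66 to 29.1 CPM, a range that held 2149 of the 9730 genes (22.1%).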

How the data were processed

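Poly-A RNA of 2 libraries of strain N5801 was used, prepared with a stranded mRNA kit per the labels' protocols. Each deposited file lists raw counts, as whole numbers for each gene of 1 library. The submitters' processing notes name Bowtie, Bowtie2, TopHat, SAMtools, HTSeq and DESeq for the series, without versions or roles. For the counting step, genome build, annotation and strand setting were not given in the sources used here. The 5 rows for reads without a gene (10.2% of all counts in replicate 1 and 9.19% in replicate 2) were left out of library sizes.

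CPM used all gene counts. Lengths, symbols and gene order came from the RefSeq NC12 gene table, which held 9729 of 9730 loci, and lengths are gene spans, since coding lengths were not used here. No coordinates are given. TMM factors and edgeR 4.0.16's exact test (common dispersion) ran in R 4.3.3, and other steps in Python 3.11.15 with scipy 1.17.1. Ratios are replicate 1 over replicate 2, TMM-scaled, with 0.5 counts added. A quasi-likelihood fit needs at least a second group, which these libraries do not form. The binomial and edgeR tests were run on simulated counts. With spread beyond counting error added, the binomial test also called unchanged genes, and edgeR's exact test did not. Named genes are the 6 repair genes, dim-1, the mat A genes, the nearest neighbours, 2 fixed lists of break repair genes, the tissue markers and the 2 closest genes by level. The members and lists were chosen with earlier results of these data known. Alternatives were other scalings, count minimums, added counts, CPM denominators, percentile backgrounds and each library alone.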

Additional observations from a re-analysis of the deposited data

How the results depend on the processing

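All 29 alternatives for the members' log2 ratios between replicates (other scaling, added count, count minimum, edgeR's exact test) kept the direction, and no member was called. mus-51 was not tested in the main setting and had no call to keep. The other log2 ratios, 0.03 to 0.32, were far under the 2-fold minimum, so the lack of calls says little. edgeR's exact test called 51 genes over the whole table, against 486 by the exact binomial test. Against all genes rather than detected genes, mean CPM percentiles were 18.4 for mus-51, 56.7 for mus-52, 34.6 for mus-53, 53.4 for mei-3, 46.5 for mus-11 and 45.5 for mus-25, against 0.00, 45.8, 18.1, 41.7, 33.1 and 31.7, the first of these being 0.00 because mus-51 itself was not detected. With all rows of the file as the denominator, every gene of a library is scaled by the same factor, and all members' levels fell. mus-25 had 14.5 CPM in place of 16.1, a shift beyond its small SD of 0.680. The other 5 levels moved by less than their SD, mus-52 for example to 26.3 CPM from 29.1. In single libraries the mus-51 share of Ku reads ran from 1.23% to 2.76%. Levels per kilobase of coding length were not run, because coding lengths were not used here. No paired analysis was possible because the RNA libraries form a single group. Depth limits mus-51, spo11 and other genes of about 10 counts.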
